A study of Mus musculus with 6 samples.

Results

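The 10 nuclear receptor genes described here were followed in the corneal epithelium of mice with and without *Rela*, the gene of the canonical NF-kappa B subunit RelA. They are the retinoic acid receptors *Rara*, *Rarb* and *Rarg*, the retinoid X receptors *Rxra* and *Rxrb*, the peroxisome proliferator-activated receptors *Ppara*, *Ppard* and *Pparg*, the glucocorticoid receptor *Nr3c1* and the vitamin D receptor *Vdr*. They were taken by gene symbol from a table of 17554 genes, with no threshold on their values, and all 10 were in it. Bulk RNA-seq had been run on the epithelial layer of 3 control and 3 mutant samples, which the methods call independent, from C57BL/6 mice at 2 months of age. The controls carry the genotype label WT, and the labels do not say whether they had the floxed allele or the Cre transgene. The mutants are labelled Rela-/- and were *Krt14-Cre; Rela f/f* mice, in which Cre is driven by the promoter of the basal keratin gene *Krt14*. Such a driver is active in the stratified epithelia of the conjunctiva and skin as well as in the cornea, so the deletion was not limited to the corneal epithelium.

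Nuclear receptors are transcription factors that are switched by small lipid-soluble ligands. RAR bind retinoic acid, PPAR bind fatty acids and their derivatives, and VDR binds the hormonal form of vitamin D. All of them act as heterodimers with an RXR, whereas the glucocorticoid receptor binds DNA mainly as a homodimer after hormone releases it from its HSP90 chaperones. In the cornea, vitamin A is needed to keep the surface epithelium wet and transparent, and its lack leads to keratinization. The ligand of RAR is made inside the tissue in 2 oxidation steps from retinol and is removed by the CYP26 enzymes, so receptors, enzymes and binding proteins are described here together.

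The libraries held 19492942 to 19733834 expected counts each. *Rela* was at 33.4 to 36.5 FPKM in the controls and at 4.93 to 5.72 FPKM in the mutants, where FPKM are fragments scaled by transcript length and by the library total (log2 fold change -2.75 ± 0.085 SE, adjusted p = 5.5e-07, edgeR quasi-likelihood test). The main axis of variation (65.7% of the variance of log2 CPM) parted the genotypes, and mutant 1 stood apart from the other mutants on the second (11.6%). The 10 corneal epithelial markers were all detected and summed to 51800 to 56600 FPKM in the controls and 46400 to 52000 in the mutants. Of these markers *Krt14*, whose promoter drives Cre, was at a mean of 178 FPKM in the controls and 1750 in the mutants (log2 fold change 3.32, adjusted p = 1.1e-05), and *Aldh3a1* was slightly lower (-0.25, adjusted p = 0.047). Markers of other cells were examined as lists. Of 8 stromal keratocyte markers 6 were under 1 FPKM in every library, as were all 4 endothelial markers in the table. The endothelial list summed to 0.03 to 0.12 in controls and 0.14 to 0.24 in mutants. The stromal list summed to 2.32 to 2.64 in controls and 1.92 to 5.03 in mutants, with *Dcn* higher and *Pdgfra* lower. *Pdgfra* alone was at 2.07 to 2.50 in controls and 1.17 to 1.48 in mutants. *Lum*, *Col1a1*, *Col1a2*, *Col3a1* and *Vim*, not tested, had means of 0.00333 to 0.03 in controls and 0.103 to 0.343 in mutants. *Kera*, not tested either, was lower (0.05 and 0.0267). The 8 leukocyte markers summed to 83.4 to 91.5 and 77.3 to 124, with *Ptprc* at 0.15 or less in every library, *Cd68* at 17.3 to 24.5 and *Cd14* higher in the mutants. Most of this sum was *Itgam*, at 63.85 to 67.15 in the controls and 50.97 to 94.77 in the mutants, which was not called. The 5 conjunctival markers summed to 1360 to 1600 and 1070 to 1190, with *Krt13* lower and the goblet cell mucin *Muc5ac* at 0.01 or less. The sums were 5.94 to 6.77 and 4.99 to 6.31 for epidermis, 6.12 to 7.20 and 6.52 to 11.8 for corneal endothelium, 4.82 to 7.28 and 6.89 to 14.0 for lens or iris, and 0.95 to 1.10 and 0.69 to 1.23 for meibomian gland or adipocyte. The part of these markers in the results below was not tested, and in bulk tissue fewer cells of a type and less RNA per cell cannot be told apart.

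In the mutant epithelium 2 receptors changed, in opposite directions. *Vdr* rose 1.60-fold and *Ppara* fell to 0.509 of its control level. The 2 most abundant receptors, *Rarg* and *Rxra*, and the glucocorticoid receptor *Nr3c1* were not called, and *Rarb* and *Rxrb* were lower in every mutant than in every control without passing the test over all genes. *Pparg* was all but undetected in both groups. A gene was called where its adjusted p was under 0.05, the Benjamini-Hochberg value over all 12667 genes with enough counts, and 9 of the 10 receptors were among those genes. The 2 calls among 9 receptors stand beside 13.2% of all tested genes called, 7.82% as higher and 5.42% as lower. Scaled counts (CPM) are counts over the library total with TMM scaling. On these the groups did not overlap for 5 of the 9 receptors, where 33.7% of all tested genes were so parted. *Vdr* and *Rara* were higher and *Rarb*, *Rxrb* and *Ppara* lower. None of the 9 passed the stricter threshold that the study's methods use (adjusted p of 0.001 or less and a fold of at least 2), by edgeR, DESeq2 or limma, against 1.37% of all genes by edgeR. An unadjusted p under 0.05 was reached by 4 of the 9 in each of the 3 tools, beside 3565 of all 12667 genes in edgeR. The median log2 fold change of the 9 was -0.02, beside -0.0028 over all genes.

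In the control epithelium the receptors spanned more than 2 orders of magnitude per unit of transcript length. *Rarg*, the RAR of skin and other stratified epithelia, stood first at 216 ± 9.2 FPKM (SD, n = 3), which was also the highest mean among the 44 nuclear receptors in the table. *Rxra*, the common partner of RAR, PPAR and VDR, followed at 45.9 ± 2.5 FPKM. *Ppard*, a sensor of fatty acids with a known role in keratinocytes, was at 24.6 ± 1.2. After it came *Nr3c1* at 15.8 ± 1.8, *Rxrb* at 14.0 ± 0.23, *Vdr* at 5.83 ± 0.058, *Rara* at 5.07 ± 0.14, *Ppara* at 1.23 ± 0.30 and *Rarb* at 0.730 ± 0.085. No 2 neighbours in this order overlapped between their control values, though *Nr3c1* and *Rxrb* came as close as 14.4 and 14.2, and *Vdr* and *Rara* differed only by 1.15 times in their means. The order was the same in the mutants, where the ranges of *Ppara* and *Rarb* overlapped. *Rxrg*, the third RXR gene, was not analysed here.

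**Figure D1:**
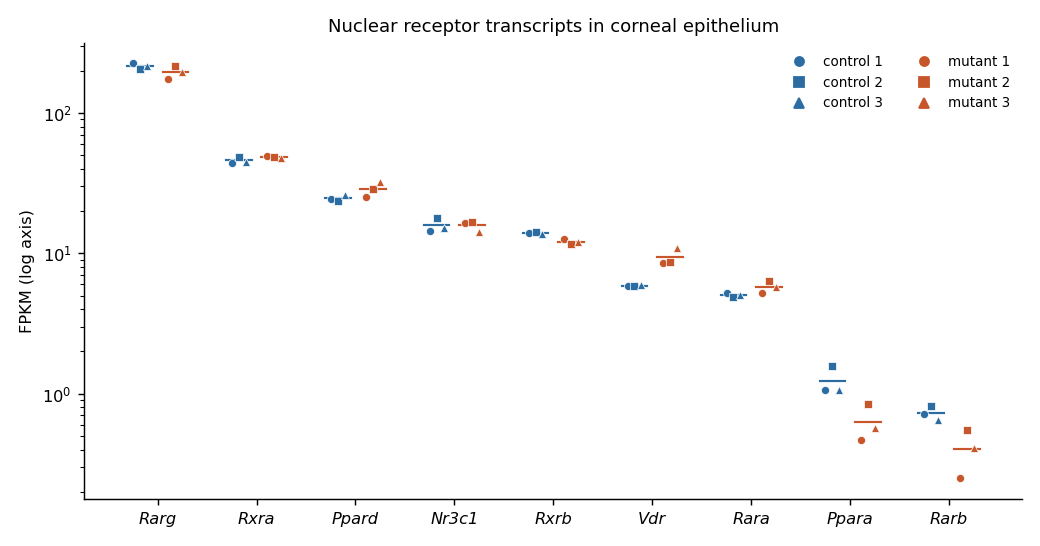
FPKM on a log axis of the 9 tested receptors in each library, ordered by control mean (blue, controls; orange, mutants; bars, group means; marker shapes, libraries 1 to 3). *Rarg* lies near 200 FPKM in all libraries, *Vdr* is higher in the 3 mutants (8.53 to 10.97) than in the 3 controls (5.80 to 5.90), and *Ppara* and *Rarb* are lower.

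Of the 3 retinoic acid receptors, *Rarg* (gene 19411, chr15:102234938-102257517, minus strand, GRCm38) carried nearly all of the RAR transcript. It was at 225, 207 and 215 FPKM in controls 1 to 3 and at 173, 215 and 197 in mutants 1 to 3. The ranges overlapped, with mutant 1 the lowest library and mutant 2 at the level of the controls. The log2 fold change was -0.14 ± 0.092 (95% interval -0.35 to 0.06, adjusted p = 0.34), so a difference of the size of the 1.60-fold rise of *Vdr* lies outside the interval.

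*Rara* (gene 19401, chr11:98927818-98974942, plus strand), the more broadly expressed RAR, was at 5.20, 4.92 and 5.08 FPKM in the controls and 5.21, 6.32 and 5.74 in the mutants. Every mutant lay above every control, mutant 1 by 0.01 FPKM only. Its log2 fold change was 0.19 ± 0.10 (-0.04 to 0.41, adjusted p = 0.26).

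*Rarb* (gene 218772, chr14:16430839-16819156, minus strand) is the RAR whose own gene is a textbook target of retinoic acid. A retinoic acid response element is a direct repeat of a short motif, and the copy in the *Rarb* promoter is the best studied. The promoter windows of RefSeq (GRCm38.p6, 250 bases before to 50 after each start) were searched on both strands for GTTCA, then 6 unspecified bases, then GTTCA. It was found in 25 of 32851 windows (0.0761%), and of the 17 windows of the 9 receptors that had one, only that of *Rarb* held it. The window of *Cyp26a1*, the retinoic acid hydroxylase with a known element of this kind, held it too and is shown for comparison. Both are printed 5′ to 3′ on the minus strand, with the repeats in capitals.
Rarb, chr14:16575506-16575535: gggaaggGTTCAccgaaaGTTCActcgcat
Cyp26a1, chr19:37697769-37697798: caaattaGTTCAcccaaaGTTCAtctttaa
The *Rarb* repeat lies 52 to 37 bases before the RefSeq start, inside an exon of a longer *Rarb* transcript in GENCODE M21. A match of letters is a description, not a binding site shown in this tissue.

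The level of *Rarb* was low in all libraries. It was at 0.72, 0.82 and 0.65 FPKM in the controls (43, 46 and 36 counts) and 0.25, 0.55 and 0.41 in the mutants (15, 31 and 24 counts). All mutants were below all controls, with mutant 1 the lowest. The log2 fold change was -0.84 ± 0.29 with an interval of -1.48 to -0.20 that leaves out 0, but the adjusted p was 0.086 and *Rarb* was not called. Exons of other genes on the opposite strand, *Top2b* among them, cover 38.4% of the exonic bases of *Rarb* in GENCODE M21. The deposited table gives *Rarb* a wider span (15962517 to 17172930) and, as for *Vdr*, the plus strand, so the gene model that was counted may differ. *Top2b*, looked up for this reason after the values were seen, was at 25.6, 28.5 and 24.9 FPKM in the controls and 28.1, 27.6 and 25.8 in the mutants (log2 fold change 0.04 ± 0.079, adjusted p = 0.77). *Cyp26a1* was at 0.12 FPKM or less in every library and was not tested.

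Both RXR genes were well detected. *Rxra* (gene 20181, chr2:27676440-27762957, plus strand) was at 44.1, 48.8 and 44.8 FPKM in the controls and 49.3, 48.9 and 48.0 in the mutants, so the mutants lay near the highest control and the ranges overlapped. This was a log2 fold change of 0.08 ± 0.071 (-0.07 to 0.24, adjusted p = 0.48). *Rxrb* (gene 20182, chr17:34031812-34038399, plus strand) was at 14.0, 14.2 and 13.7 FPKM in the controls and 12.7, 11.6 and 11.95 in the mutants. The controls were tightly grouped, and all 3 mutants lay below them. The difference was small, -0.20 ± 0.075 on the log2 scale (-0.37 to -0.04, adjusted p = 0.11), and was not called.

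Among the PPAR genes, *Ppard* prevailed and *Ppara* fell. *Ppara* (gene 19013, chr15:85734983-85802819, plus strand), the receptor that drives fatty acid oxidation genes in liver and heart, was at 1.06, 1.58 and 1.06 FPKM in the controls (152, 228 and 153 counts) and 0.47, 0.84 and 0.57 in the mutants (67, 123 and 82 counts). The groups did not overlap, and the highest value of each group was that of its library 2. The log2 fold change was -0.97 ± 0.24 (-1.52 to -0.43, adjusted p = 0.028). The call was lost without control 2 (-0.76, adjusted p = 0.12), control 3 (-1.06, adjusted p = 0.057) or mutant 3 (-0.89, adjusted p = 0.072).

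*Ppard* (gene 19015, chr17:28232700-28301474, plus strand) was at 24.5, 23.5 and 25.9 FPKM in the controls and 25.1, 28.5 and 32.2 in the mutants. Mutant 1 lay within the controls and the other two mutants above them. The difference was 0.21 ± 0.096 on the log2 scale (-0.00 to 0.43, adjusted p = 0.18), and it was called only without mutant 1 (0.29, adjusted p = 0.043). *Pparg* (gene 19016, chr6:115360951-115490399, plus strand), the PPAR of adipocytes and sebaceous cells, had 2 counts in control 3 and 0 in the other 5 libraries. A floor was set at 3 counts, which at this depth is 0.152 to 0.154 CPM before TMM scaling, and levels below it are limited by depth. *Pparg* had too few counts to be tested, so no fold was computed.

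*Vdr* (gene 22337, chr15:97854425-97910630, minus strand) had the smallest p of the 9 tested. It was at 5.80, 5.80 and 5.90 FPKM in the controls (501, 496 and 506 counts) and at 8.53, 8.60 and 10.97 in the mutants (730, 738 and 950 counts). The controls were nearly equal and every mutant was above them, mutant 3 the most. The log2 fold change was 0.68 ± 0.10 (0.45 to 0.91, adjusted p = 0.0024), and *Vdr* was called in all 14 alternatives tried, with values of 0.56 to 0.73. The 3 genes whose log2 CPM followed *Vdr* most closely over the 6 libraries were *Furin* (Pearson r = 0.9957), a proprotein convertase, *Eef1g* (0.9909), a translation elongation factor subunit, and *Cercam* (0.9875). These r values rest on 6 points in 2 groups, and 177 genes had an r above 0.95. For *Rarb* the closest were *Folr1* (0.9938), a folate receptor, *Sik2* (0.9936), a protein kinase, and *Srgap3* (0.9914), with 120 genes above 0.95.

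*Nr3c1* (gene 14815, chromosome 18) was at 14.4, 17.9 and 15.1 FPKM in the controls and 16.5, 16.7 and 14.2 in the mutants. The groups overlapped throughout. Between the groups its log2 fold change was -0.02 ± 0.11 (-0.26 to 0.22, adjusted p = 0.91), and its sign turned in 4 of the 14 alternatives, none of which called it.

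**Figure D2:**
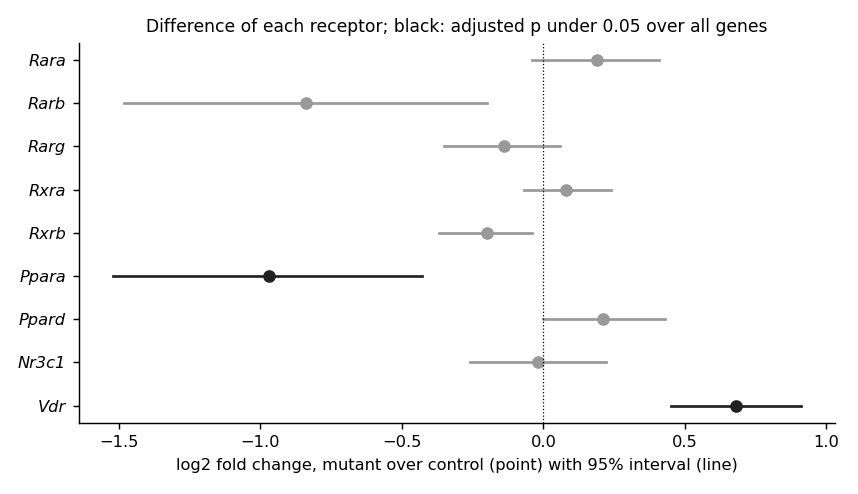
Log2 fold change of each tested receptor, mutant over control, from edgeR, as a point with its 95% interval (line; not adjusted for the number of genes). The 2 receptors called, *Ppara* at -0.97 and *Vdr* at 0.68, are black; the intervals of *Rarb* and *Rxrb* also leave out 0, and those of the other 5 reach or span it.

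The make-up of each receptor family was compared as the percent of its summed FPKM that each subtype held, 5 shares in all. *Rarg* held 97.4% ± 0.072 of RAR in the controls and 96.9% ± 0.031 in the mutants (SD, n = 3 each), and *Rara* held 2.29% ± 0.034 and 2.86% ± 0.047. *Rarb* held 0.330% ± 0.048 and 0.197% ± 0.054. *Rxrb* held 24.1, 22.5 and 23.5% of the RXR transcript in the controls and 20.5, 19.1 and 19.9% in the mutants, the rest being *Rxra*. The share of *Ppara* in PPAR was 4.14, 6.29 and 3.93% in the controls and 1.84, 2.86 and 1.74% in the mutants, and *Ppard* held nearly all the rest. On CPM, which are not scaled by length, the mean difference between mutants and controls was -5.49 percentage points for *Ppara* in place of -2.64, and -2.21 for *Rxrb* in place of -3.53. In each of the 5 shares the groups did not overlap, and each reached the smallest p that 3 against 3 libraries allow (exact two-sided permutation test, p = 0.1, adjusted p = 0.1 over the 5), which cannot pass 0.05. The 3 RAR shares depend on each other. The family sums themselves overlapped for RAR (213 to 231 FPKM in controls and 179 to 222 in mutants), RXR (58.1 to 63.0 and 60.0 to 62.0) and PPAR (25.1 to 27.0 and 25.5 to 32.8).

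**Figure D3:**
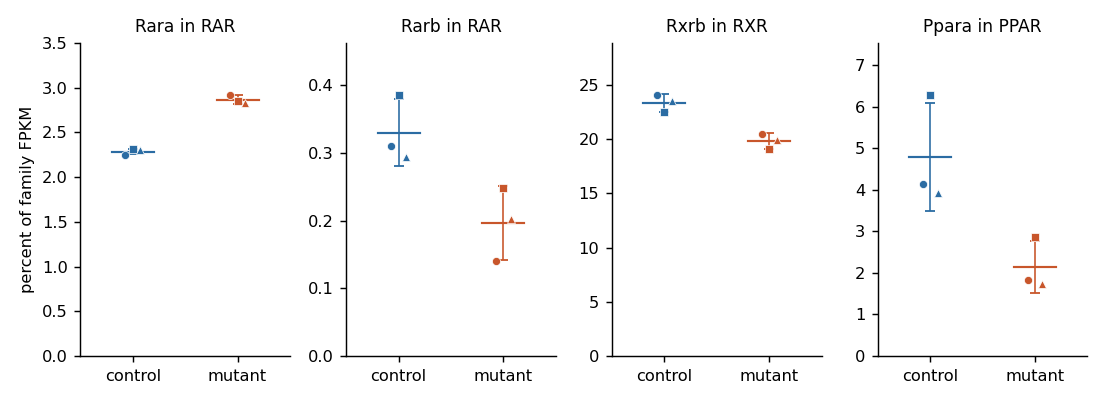
Percent of the summed FPKM of the RAR, RXR or PPAR family held by *Rara*, *Rarb*, *Rxrb* and *Ppara* in each library (points; horizontal bars, means; error bars, SD, n = 3; each axis starts at 0 with its own scale). The mutants lie above the controls for *Rara* and below them for the other 3.

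Outside the 10, 34 of 39 other nuclear receptors were in the table and 17 had enough counts to be tested. Of the 17, 5 fell, beside 5.42% of all genes, and 0 rose (0 by DESeq2 or limma, and at an unadjusted p under 0.05 0 in edgeR and limma and 1 in DESeq2). Their median log2 fold change was -0.17. *Nr2f2* (COUP-TFII), an orphan receptor, was at 34.6, 38.0 and 40.0 FPKM in the controls and 23.0, 24.2 and 23.6 in the mutants (-0.68 ± 0.081, adjusted p = 7.2e-04). All 3 mutants were well below the controls, which follows largely from *Nr2f2* being named as a called gene. Its call held in all 14 alternatives. Among the others were the clock repressor *Nr1d2* (-0.40 ± 0.093, adjusted p = 0.022), *Nr2f6* (-0.34 ± 0.084, adjusted p = 0.027) and *Nr2c1* (-0.27 ± 0.071, adjusted p = 0.033). *Nr2f6* was not called by limma with either pseudocount (adjusted p = 0.064 and 0.060) or without control 1, control 2, mutant 2 or mutant 3 (0.062 to 0.099), and *Nr1d2* was not called without control 2, control 3 or mutant 3 (0.059 to 0.088). Between 1 and 5 of the 17 were called when a library was left out, 1 without control 2, 2 without control 3, mutant 2 or mutant 3, and 3 without control 1. The 3 with the highest mean FPKM were *Nr1d1* (115 to 126 FPKM in controls, 119 to 158 in mutants, adjusted p = 0.19, called without mutant 1 at 0.32, adjusted p = 0.024), the oxysterol receptor *Nr1h2* (42.0 to 48.5 and 43.5 to 48.5, adjusted p = 0.83) and *Nr1d2*.

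All 20 coregulators listed, the coactivators and corepressors that receptors recruit, were tested. Of the 20, 0 were called by edgeR, beside 13.2% of all tested genes, and 0 by DESeq2 or by limma on log2(FPKM + 1). The 1 with an unadjusted p under 0.05 in edgeR was *Lcor* (-0.21 ± 0.087, adjusted p = 0.16), named after its value was seen. The 20 log2 fold changes ran from -0.38 to 0.27 with a median of 0.01.

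Genes that make, carry and clear retinoic acid changed in both directions, by up to 3.43 on the log2 scale. Of 20 listed, 19 were in the table and 12 tested. Of the 12, 7 were called, 3 higher and 4 lower, beside 7.82% and 5.42% of all tested genes. On the side of synthesis, the retinol dehydrogenases *Adh7* (509 to 520 FPKM in controls, 289 to 335 in mutants, -0.75 ± 0.075, adjusted p = 2.7e-04) and *Adh1* (936 to 1052 and 672 to 767, -0.47 ± 0.079, adjusted p = 0.0044) fell. So did the retinaldehyde dehydrogenase *Aldh1a1* (-1.94 ± 0.18, adjusted p = 2.1e-04), whose sequence is close to that of *Aldh1a7* so that short reads can be shared, while its paralog *Aldh1a3* rose (1.53 ± 0.12, adjusted p = 6.6e-05). The retinoic acid hydroxylase *Cyp26b1* fell by 1.83 on the log2 scale (SE 0.23, adjusted p = 8.7e-04).

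*Crabp2*, which hands retinoic acid to RAR, was at 1.10, 0.76 and 0.35 FPKM in the controls (19, 13 and 6 counts) and 12.8, 5.48 and 5.83 in the mutants (219, 94 and 101 counts), a log2 fold change of 3.43 ± 0.45 (adjusted p = 0.0011). Every mutant was above every control, with mutant 1 the highest. This separation follows largely from *Crabp2* being named as a called gene. These are values of transcripts, and retinoic acid itself was not measured in them.

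Of 15 retinoic acid target genes listed, 12 were in the table and 6 tested. Of the 6, 3 rose and 1 fell, beside 7.82% and 5.42% of all tested genes. Among those that rose were *Crabp2* and *Rarres1* (3.63 to 3.93 FPKM in controls, 4.68 to 6.83 in mutants, 0.68 ± 0.17, adjusted p = 0.028), and the 1 that fell was *Cyp26b1*. Of the 4 called, 3 are also on the metabolism list. *Rarres1* lost its call without any of the 3 controls, without mutant 1 or without mutant 2 (0.57 to 0.71, adjusted p = 0.058 to 0.09).

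**Figure D4:**
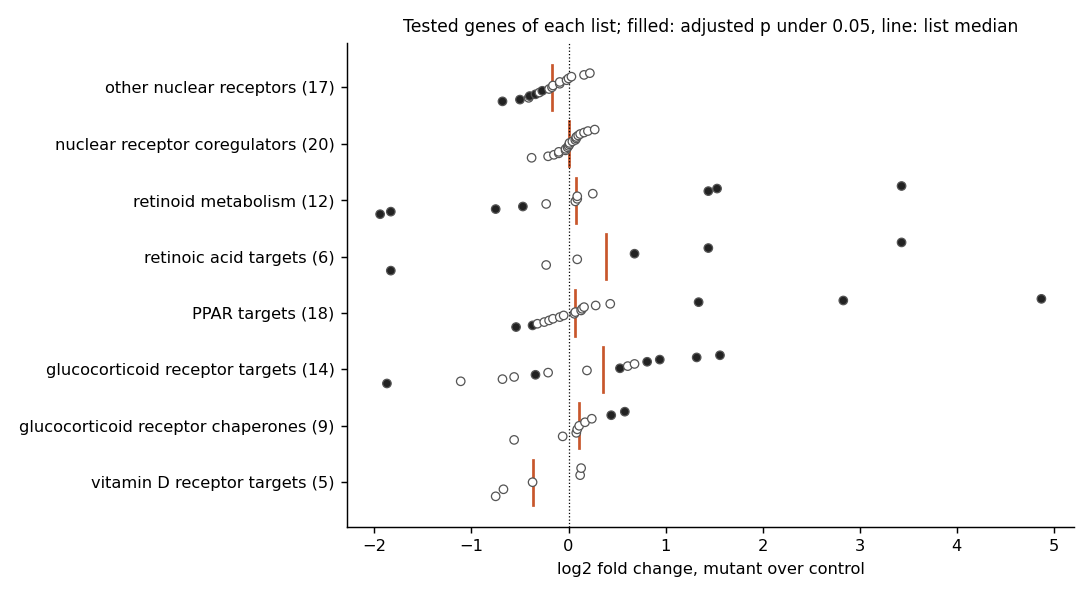
Log2 fold change, mutant over control, of each tested gene in 8 lists (number tested in brackets; filled points, adjusted p under 0.05; orange lines, list medians; the receptors themselves left out). Retinoid metabolism and retinoic acid targets spread from -1.94 to 3.43, and the coregulators stay between -0.38 and 0.27.

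Of 26 PPAR target genes listed, 24 were in the table and 18 tested. Of the 18, 3 rose and 2 fell, beside 7.82% and 5.42% of all tested genes, with a median of 0.07. The 2 that fell belong to fatty acid oxidation. Other oxidation genes on the list, which were not called, went both ways. *Cpt2* (0.16), *Acadvl* (0.14) and *Hadha* (0.13) were higher in every mutant than in every control. *Acaa1a* (-0.25) and *Ehhadh* (-0.32) were lower in every mutant. *Cpt1a*, which admits long-chain fatty acids to mitochondria, was at 29.3, 35.1 and 30.9 FPKM in the controls and 18.8, 23.9 and 22.9 in the mutants (-0.54 ± 0.10, adjusted p = 0.0086). *Acadm*, the medium-chain acyl-CoA dehydrogenase, was at 79.4, 85.0 and 76.0 and at 63.5, 62.9 and 59.3 (-0.37 ± 0.074, adjusted p = 0.010, and 0.050 without control 2, where it was not called). In both genes all mutants were below all controls, which follows largely from their being named as called genes. A part of *Ppara* in these values was not tested.

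The 3 PPAR targets that rose were a pair of fatty acid binding proteins and a fatty acid hydroxylase. *Fabp5*, the epidermal fatty acid binding protein, which can also carry retinoic acid to PPAR delta, was at 86.7, 79.4 and 98.2 FPKM in the controls and 970, 493 and 423 in the mutants (2.83 ± 0.29, adjusted p = 2.9e-04). Mutant 1 was the highest, and the lowest mutant was far above the controls. This separation follows largely from *Fabp5* being named as a called gene. *Fabp4*, a marker of adipocytes, macrophages and capillaries, had 0, 2 and 3 counts in the controls and 74, 42 and 41 in the mutants, a ratio of summed counts, each over its library totals, of 31.3 (95% exact interval for counting error 13.2 to 97.9, edgeR adjusted p = 6.0e-04). The adipocyte marker *Adipoq* was at 0.04 FPKM or less and the macrophage marker *Adgre1* at 0.05 or less in every library. The endothelial marker *Pecam1* was at 0.03 to 0.08 FPKM in the controls and 0.12 to 0.23 in the mutants. *Tek* went the other way, at means of 0.02 in the controls and 0.00333 in the mutants. *Cdh5* and *Kdr* were at 0.01 or less in the controls and 0.04 or less in the mutants. None of these endothelial markers had enough counts to be tested. *Cd14* of monocytes and macrophages was higher in the mutants (0.75, adjusted p = 0.048). Of the 4 leukocyte markers tested only *Cd14* was called. *H2-Aa* (0.66, adjusted p = 0.26), *Cd68* (0.22, adjusted p = 0.22) and *Itgam* (0.10, adjusted p = 0.77) were not. The part of such cells in the *Fabp4* counts was not tested. *Cyp4a10* was at 0.32 to 0.55 FPKM in the controls and 0.93 to 1.31 in the mutants (1.34 ± 0.28, adjusted p = 0.013). Its expected counts were not whole, since RSEM splits reads that it shares with near copies. It lost its call without control 1 (adjusted p = 0.053) or control 2 (adjusted p = 0.059).

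*Nr3c1* was not called. Of 14 glucocorticoid target genes 7 were, 5 higher and 2 lower, beside 7.82% and 5.42% of all tested genes. The median of the 14 was 0.36. By sign alone 8 of the 14 were higher and 6 lower. Of those not called, *Per1* (-1.11), *Zbtb16* (-0.68), *Fkbp5* (-0.56) and *Sgk1* (-0.21) were lower, and *Dusp1* (0.68), *Ddit4* (0.61) and *Klf9* (0.19) higher. The metallothioneins *Mt1* (1.32 ± 0.12, adjusted p = 1.3e-04) and *Mt2* (355 to 456 FPKM in controls, 998 to 1449 in mutants, 1.56 ± 0.15, adjusted p = 2.0e-04), which bind zinc and also answer to metals, rose. So did *Anxa1* (467 to 492 FPKM and 745 to 1012, 0.81 ± 0.12, adjusted p = 0.0023), *Cebpd* (0.94 ± 0.15, adjusted p = 0.0033) and *Errfi1* (0.53 ± 0.10, adjusted p = 0.0096).

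*Tsc22d3*, which encodes the glucocorticoid-induced leucine zipper GILZ, was 1 of the 2 called targets that fell. It was at 30.0, 64.1 and 51.0 FPKM in the controls and 9.58, 12.5 and 17.2 in the mutants (-1.87 ± 0.27, adjusted p = 0.0020). The controls varied more than 2-fold among themselves. The highest mutant was below the lowest control, which follows largely from *Tsc22d3* being named as a called gene. *Nfkbia*, which is a target of NF-kappa B as well, fell slightly (26.0 to 29.6 FPKM and 21.0 to 23.3, -0.34 ± 0.085, adjusted p = 0.028), and lost its call without control 1, control 3 or mutant 3 (adjusted p = 0.068 to 0.11). The chaperones *Hspa8* (193 to 228 and 301 to 328 FPKM, 0.58 ± 0.083, adjusted p = 0.0018) and *Hsp90aa1* (73.6 to 75.8 and 100 to 103 FPKM, 0.44 ± 0.067, adjusted p = 0.0027) rose. These were 2 of the 9 tested of 11 listed, beside 7.82% of all tested genes. Of the 9, 0 fell, beside 5.42% (0 by DESeq2 or limma, and 0 at an unadjusted p under 0.05 in all 3 tools). Without control 1, its lowest control, the co-chaperone *Fkbp5*, named after its values were seen and also on the target list, was called as lower (-0.90, adjusted p = 0.0025), against -0.56 with an adjusted p of 0.26 in all 6 libraries. It was at 6.79, 18.8 and 17.1 FPKM in the controls and 10.2, 10.3 and 8.51 in the mutants.

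None of the tested targets of *Vdr* was called in edgeR. Of 13 vitamin D targets and enzymes listed, 11 were in the table and 5 tested, and 0 were called by edgeR or limma. In edgeR 3 of the 5 had an unadjusted p under 0.05, beside 3565 of all 12667 genes. Those 3, named after their values were seen, were all lower in the mutants. *Cyp24a1*, which inactivates vitamin D and is the classic VDR target, was at 5.94, 4.15 and 5.10 FPKM in the controls and 2.04, 3.42 and 4.14 in the mutants (-0.67 ± 0.23, adjusted p = 0.084). It was called by DESeq2 (-0.67, adjusted p = 0.018) and without mutant 3 (-0.88, adjusted p = 0.037). The calcium channel *Trpv6* was at 1.42 to 1.76 and 0.60 to 1.15 FPKM (-0.75 ± 0.25, adjusted p = 0.082), and the 25-hydroxylase *Cyp2r1* at 1.76 to 2.10 and 1.33 to 1.57 (-0.37 ± 0.15, adjusted p = 0.13). In each of the 3 the groups were apart in scaled counts, for *Cyp24a1* by little. *Cyp27b1*, which makes the active hormone, was at 0.06 FPKM or less in every library.

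**Figure D5:**
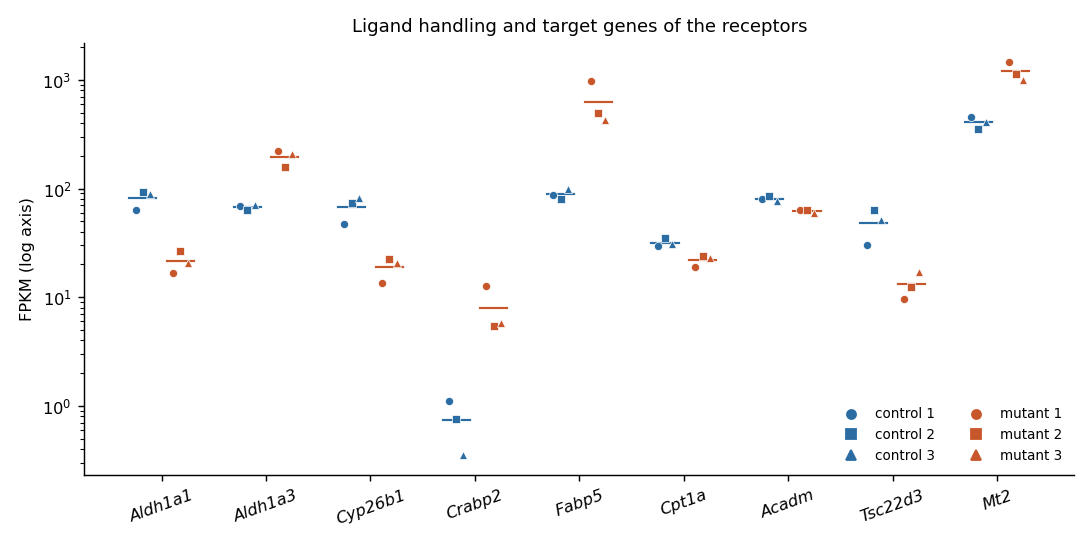
FPKM on a log axis of 9 named ligand-handling and target genes in each library (blue, controls; orange, mutants; bars, group means; marker shapes, libraries 1 to 3). The groups are apart in all 9, with *Fabp5* from 79.4 to 98.2 in controls to 423 to 970 in mutants and *Tsc22d3* from 30.0 to 64.1 down to 9.58 to 17.2. All 9 were called between these groups, so their separation follows largely from that choice.

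A further pair of motifs was looked up in the promoter windows. The hexamer AGGTCA, one receptor-binding unit, was in 16.3% of all windows and in 5 of the 17 windows of these receptors, those of *Pparg*, *Rara*, *Rarg* and *Rxra*. A kappa B motif, GGG, then 2 unspecified bases, then TTTCC, was in 1.63% of all windows and in 0 of the 17, which says only that these letters are not within 250 bases before to 50 after a listed start.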

How the data were processed

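The authors extracted RNA from the separated corneal epithelial layer of 3 independent samples per genotype, and sequenced single-end reads of 50 bases. They aligned with Bowtie2 2.2.5 and estimated expression with RSEM 1.2.12. The kit is TruSeq in the labels and an rRNA depletion kit in the methods, and whether strand was kept is not given in the sources used here. The deposited values used are expected counts per gene, not normalized, and FPKM, which the authors' RSEM run scaled by transcript length and library total. The deposited fold changes, p-values and q-values of the authors' own comparison were not used. The submitters' processing notes name mm9, whereas the table's coordinates are those of GRCm38, and positions here are from GENCODE M21 on GRCm38.

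Expected counts were rounded and tested in edgeR 4.0.16 (R 4.3.3) with TMM scaling, filterByExpr (minimum count 10, minimum total 15) and quasi-likelihood F tests of genotype alone, on all 12667 genes that passed. A standard error is the absolute log2 difference divided by the root of its F value. Fold changes are mutant over control. The steps were tested on simulated data. The members, gene lists and tests were chosen with earlier results of these data known. Named are all members, *Rela*, in each list up to 4 called genes per direction with the smallest p, the 3 other nuclear receptors with the highest FPKM, and the 3 genes most like *Vdr* and *Rarb*; genes named otherwise were chosen after their values were seen. Some genes that the rule selects are counted but not reported here by name. *Plin2* has 2 rows, and the one RefSeq gives that symbol was used. Alternatives were DESeq2 1.42.0, limma 3.58.1 on log2(FPKM + 1) and log2(FPKM + 0.1), other scalings and filters, a replicate block and each library left out. Intervals of counts cover counting error only. Depth was even, at 19492942 to 19733834 expected counts.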

Additional observations from a re-analysis of the deposited data

How the results depend on the processing

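Of 9 tested receptors, the rise of *Vdr* kept its direction and its call in all 14 alternatives. *Ppara* ran from -1.27 to -0.76 on the log2 scale with a library left out and lost its call in 3 of these 6 fits, and log2(FPKM + 1), which understates low genes, gave -0.46 (called, adjusted p = 0.042). *Ppard* ran from 0.13 to 0.29 and was called without mutant 1. *Nr3c1* was at 0.01 with limma under either pseudocount and between -0.09 and 0.07 with a library left out, and *Nr1h2* between -0.02 and 0.08, reaching -0.00 without mutant 2 and -0.02 without control 2. Between 1 and 3 receptors and between 857 and 1869 genes were called with a library left out, 857 without control 2 and 999 without control 3. *Rarb* was called in none of the 14, with adjusted p from 0.059 to 0.23. PPAR targets gave 3 calls in place of 5 without control 2, and with no filter on low counts *Spp1* was called as higher among the vitamin D targets (5.59, adjusted p = 0.013). It had 0, 1 and 0 counts in the controls and 52, 10 and 4 in the mutants, most of them in mutant 1. The replicate numbers did not pair the samples (correlation of deviations 0.019, 0.0483 and -0.0464, with 3 of 6 libraries closest to their own number). A replicate block gave 1419 genes, 29 list genes in place of 27 and the same 2 receptors, *Vdr* at 0.67 and *Ppara* at -0.99, and took the call from *Nfkbia* (adjusted p = 0.058). Where no other cause is given, the cause was not tested. Receptors with few counts, such as *Rarb*, and genes near 0, such as *Pparg*, are limited by depth.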
